A study of Mus musculus with 2 samples.

Results

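Müller barcodes are droplet barcodes of the retinal libraries whose transcripts carry markers of Müller glia. They were chosen by marker counts. A barcode needed more than 400 unique molecular identifiers (UMIs, each standing for 1 captured transcript), more than 200 genes and no more than 20% of its UMIs in mtDNA-encoded genes. It then had to hold at least 3 of the 8 markers *Glul*, *Rlbp1*, *Slc1a3*, *Aqp4*, *Dkk3*, *Kcnj10*, *Car14* and *Spc25*, with a sum of at least 0.5% of its UMIs, and more UMIs of *Glul* than of *Rpe65* and *Ttr* together, which are abundant in retinal pigment epithelium (RPE). This selected 383 of 30924 barcodes within the limits, 78 of 12529 in WT and 305 of 18395 in ND6. The members were then divided at their pooled median share of *Malat1*, a long noncoding RNA kept in the nucleus, 0.990% of UMIs, into *Malat1*-rich barcodes (37 WT, 155 ND6) and *Malat1*-poor barcodes (41 WT, 150 ND6).

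The data are droplet-based 3′ single-cell RNA-Seq of dissected retina from male C57BL/6J mice aged 7 months. The WT group carries the wild-type mtDNA and the ND6 group carries a G>A change at mtDNA position 13997, inside the *mt-Nd6* gene (chrM:13552-14070, mm10, minus strand), which encodes a subunit of complex I. The mutant mice were made by fusion of female embryonic stem cells, and the colony was kept by crossing mutant females with WT males. Retinas were digested with trypsin and papain. Replicate 1 of each group was analysed here, so each group is 1 library, no difference has a replicate check and no test was made. The intervals given in parentheses are exact 95% intervals, and they cover counting error only.

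Müller glia span the neural retina from the inner limiting membrane to the outer limiting membrane and are its main glial cells. They take up glutamate through *Slc1a3* (GLAST) and turn it into glutamine with *Glul* (glutamine synthetase), and they move potassium and water through *Kcnj10* (Kir4.1) and *Aqp4*. They bind retinoids of the cone visual cycle with *Rlbp1* (CRALBP), and in injury they can raise the intermediate filament *Gfap*, a state called gliosis.

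The libraries held 77958836 UMIs (WT) and 80358255 UMIs (ND6) in all. The members together held 448027 UMIs in WT and 862372 in ND6, with medians of 2610 and 1619 UMIs per barcode. The WT *Malat1*-rich barcodes were the deepest, with a median of 6703 UMIs, against 2214 in the ND6 *Malat1*-rich barcodes, 1159 in the WT *Malat1*-poor and 1489.5 in the ND6 *Malat1*-poor barcodes. In WT, 1 barcode with 61460 UMIs and 7 of the 8 markers held 13.7% of all member UMIs, and the deepest 5 held 37.5%. In ND6 the deepest 5 held 11.0%. No barcode sequence was shared between WT and ND6 members, while 59 were shared among all barcodes within the limits. Doublets were not called.

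The label was checked on 17 Müller markers that the rule did not use. All 17 were detected in the members of both libraries, and together they took 1.94% (1.90 to 1.98) of WT and 0.920% of ND6 member UMIs, against 0.0981% and 0.112% in rod-like barcodes, which hold at least 3 rod markers with a sum of at least 5% of UMIs. The most abundant was *Apoe*, a lipid carrier, at 7044 CPM (UMIs scaled to a common library total) in WT and 3064 in ND6 members and at 67.9 and 85.0 CPM in rod-like barcodes. *Sox9*, a transcription factor of Müller glia, was found in 31 of 78 WT members (39.7%) and 55 of 305 ND6 members (18.0%), against 0.831% and 1.30% of the rod-like barcodes, which had medians of 1764 and 1389 UMIs. In RPE-like barcodes, chosen by at least 0.5% of RPE marker UMIs, the same 17 markers took 2.33% in WT and 2.01% in ND6, more than in the members, and in microglia-like barcodes 0.412% and 1.14%, with *Apoe* the most abundant in each. *Glul* was at 723 and 684 CPM in the RPE-like and at 799 and 744 CPM in the microglia-like barcodes, against 6897 and 5538 CPM in the members, but it belongs to the rule. Taken as a sum, the markers outside the rule were thus higher in the members than in rod-like barcodes of both libraries, but not higher than in RPE-like barcodes or, in ND6, than in microglia-like barcodes. *Sox9* was at 424 and 125 CPM in the members, at 145 and 113 CPM in RPE-like barcodes and at 0 UMIs in microglia-like barcodes.

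Transcripts of other cells were present beside them. Rod markers took 2.69% of WT and 2.73% of ND6 member UMIs, below the free RNA of the same libraries (5.91% and 6.31%, barcodes of 10 to 100 UMIs). At least 3 markers of a cone, bipolar, horizontal, amacrine or ganglion cell list were found in 13 of 78 WT members (16.7%, 9.18 to 26.8) and in 83 of 305 ND6 members (27.2%, 22.3 to 32.6). Bipolar markers were the most frequent of these, in 9 WT and 52 ND6 members. Microglia markers took 0.00156% and 0.00464%, with 3 and 6 of the 7 genes detected. RPE markers took 0.0304% and 0.0235%, against 0.212% and 0.133% in free RNA, led by *Ttr*, but the choice of members set this, since it left out 106 WT and 194 ND6 barcodes whose *Glul* was not above *Rpe65* and *Ttr*. *Gfap*, which marks astrocytes and reactive glia, had 0 UMIs in the members of both libraries, which allows up to 6.70 CPM in WT and 3.48 CPM in ND6.

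The share of Müller barcodes was 0.623% (0.492 to 0.776) in WT and 1.66% (1.48 to 1.85) in ND6, a 2.66-fold difference (log2 ratio 1.41, 1.05 to 1.79). This size differed between definitions of the members. When *Glul* was left out of the marker count and the sum, 35 WT and 57 ND6 barcodes remained, 0.279% and 0.310%. The log2 ratio was then 0.15 (−0.48 to 0.80). The limits of 3 markers and 0.5% were kept there, and *Glul* still had to exceed *Rpe65* and *Ttr*, so this definition was also stricter. When at least 6 markers had to be detected, a definition added after the data were seen, 32 WT and 61 ND6 barcodes remained, 0.255% and 0.332%, with a log2 ratio of 0.38 (−0.26 to 1.04). The shares of the libraries differed by less than the counting error under both of these definitions. With *Glul* kept, a sum of at least 1% gave a log2 ratio of 0.81 (0.30 to 1.34). At least 4 markers left 0.447% of WT and 1.04% of ND6 barcodes. The parts of *Glul* and of the stricter limits were not tested.

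**Figure D1:**
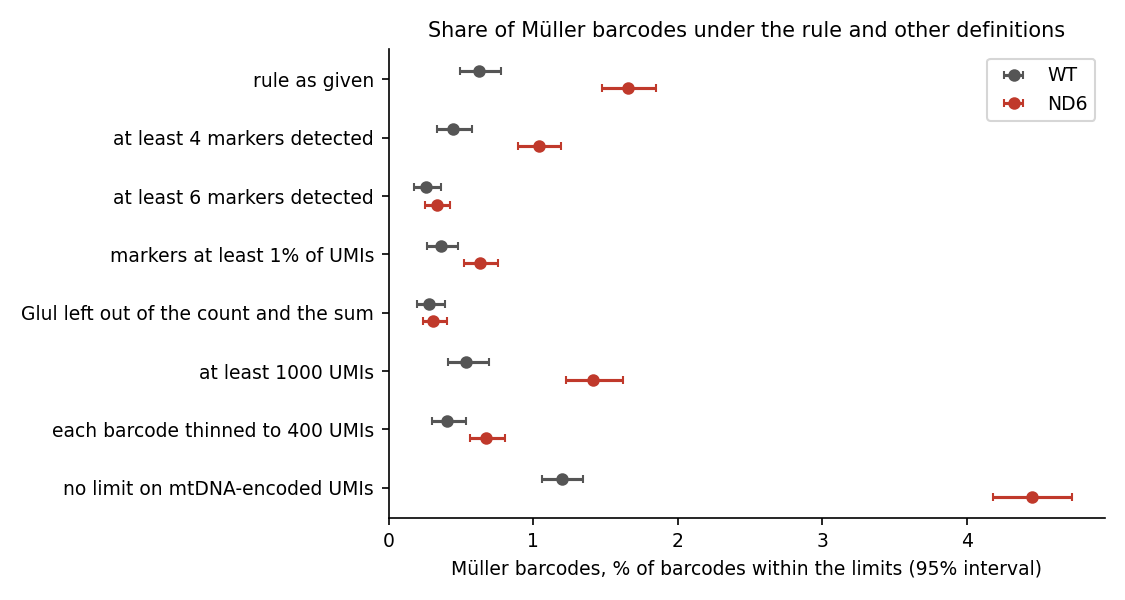
Share of barcodes within the limits that met the marker rule (x axis, percent) under the rule as given and 7 other definitions (y axis; the one with at least 1000 UMIs and the last, which takes in barcodes above the mtDNA limit, have their own denominators), for WT (grey) and ND6 (red), with exact 95% intervals for counting error. The ND6 share is 1.66% against 0.623% under the rule as given. It is 0.310% against 0.279% when *Glul* is left out of the marker count and the sum.

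Free *Glul* RNA also differed between the libraries. In barcodes of 10 to 100 UMIs, *Glul* was at 464 CPM (380 to 562) in WT and 1410.3 CPM (1295 to 1533) in ND6, and in rod-like barcodes it was at 133 and 233 CPM. All 8 rule markers together took 0.0902% of free UMIs in WT and 0.2204% in ND6, both below the 0.5% of the rule. The part of free RNA in the share of Müller barcodes was not tested.

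The members just inside and outside the limits of the rule are given as a description. A marker sum of 0.5 to 0.6% was held by 11 WT and 68 ND6 members, and a sum of 0.4 to 0.5%, just outside, by 13 WT and 80 ND6 barcodes. Exactly 3 markers were detected in 22 WT and 114 ND6 members, and 17 WT and 100 ND6 barcodes with 2 markers and the required sum were left out. A further 106 WT and 194 ND6 barcodes met the other conditions but had no more *Glul* than *Rpe65* and *Ttr*.

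The number of the 8 markers found belongs to the rule and is given as a description, beside median depths of 2610 UMIs in WT and 1619 in ND6 members. All 8 were detected in 21 of 78 WT members and in 9 of 305 ND6 members, and 3 were detected in 28.2% and 37.4%. The 32 WT members with 6 to 8 markers had a median of 8690.5 UMIs and held 376943 of the 448027 WT member UMIs, so the WT sums are mostly theirs. The 61 ND6 members with 6 to 8 markers had a median of 4961 UMIs and held 385506 of 862372. *Glul* made up 49.5% of the marker UMIs in the WT members with 6 to 8 markers and 59.6% in those with 3, and 58.6% and 67.9% in ND6.

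The *Malat1* share of the members left a gap at the dividing value in WT and none in ND6. In WT, the poor barcodes reached at most 0.587% and the rich barcodes started at 1.10%, with medians of 0.108% and 6.77%, and 5 of 78 lay within a factor of 2 of the dividing value. In ND6, the medians were 0.313% and 3.21%, and 86 of 305 lay within that factor. No *Malat1* UMI was found in 7 WT and 9 ND6 members. Of the WT *Malat1*-rich barcodes 30 of 37 carried 6 or more markers, against 2 of 41 *Malat1*-poor barcodes. In ND6 these counts were 41 of 155 and 20 of 150. Most *Malat1*-rich barcodes of the ND6 library thus carried fewer than 6 markers, and most of WT carried 6 or more.

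**Figure D2:**
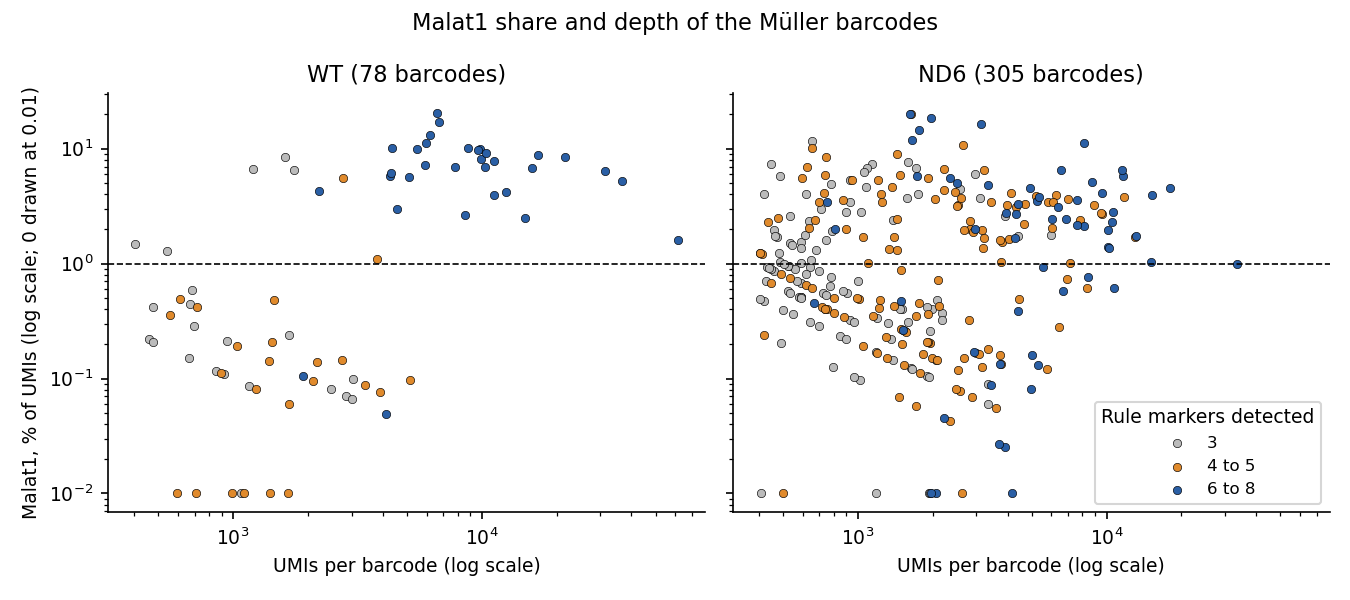
Each point is 1 Müller barcode, placed by its UMIs (x axis, log scale) and its *Malat1* share in percent of UMIs (y axis, log scale, 0 drawn at 0.01), with the dividing value 0.990% as a dashed line and colours for the number of rule markers detected. Most WT *Malat1*-rich members are deep and carry 6 to 8 markers (30 of 37), and most WT *Malat1*-poor members have at most 2000 UMIs (30 of 41), while ND6 members also lie near the dividing value.

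Levels of the rule markers in *Malat1*-rich and *Malat1*-poor barcodes are a description, since every member was chosen by them, and *Glul* is present in every member by the rule. *Glul* and *Rlbp1* were near each other in both, while *Slc1a3* and *Aqp4* were lower in the poor barcodes. *Glul* (chr1:153899944-153909723) was at 7005 CPM (6743 to 7276) in WT rich and 6258 (5665 to 6897) in WT poor barcodes, and at 5082 (4900 to 5270) and 6446 (6156 to 6746) in ND6. *Rlbp1* (chr7:79374870-79387048) was higher in the poor barcodes, at 2445 against 1836 CPM in WT and 1690 against 1233 CPM in ND6. *Dbi*, an acyl-CoA-binding protein, showed the same order, with log2 ratios of rich over poor of −0.72 (−0.96 to −0.48) in WT and −0.55 (−0.72 to −0.37) in ND6. *Spc25*, a kinetochore gene used as a Müller marker in mouse retina, was at −0.35 and −0.52. In WT these 3 orders turned among members with 4 or more markers, divided again at their own pooled median *Malat1* share. The log2 ratios were then 0.48 (*Rlbp1*), 0.26 (*Dbi*) and 0.33 (*Spc25*). The part of the moved dividing value in this was not tested. The small WT difference of *Glul* turned to −0.39 under median-of-ratios scaling. In ND6, *Rlbp1* (0.18), *Spc25* (0.15) and *Glul* (0.028) turned among members with 6 or more markers, also divided again at their own pooled median.

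*Slc1a3* (chr15:8634124-8710764) was 5.52-fold higher in the WT rich than in the WT poor barcodes, with 849 CPM (759 to 946) against 154 (73.7 to 283). In ND6 it was 2.09-fold higher, with 326 CPM (281 to 376) against 156 (114 to 209). The intervals of the poor barcodes of both libraries overlapped, with only 10 UMIs in WT, and those of the rich barcodes did not. *Aqp4* was at 935 and 185 CPM in WT and at 289 and 156 CPM in ND6. *Sox9* was at 486 and 61.5 CPM in WT and at 148 and 79.8 CPM in ND6. *Cp*, the iron oxidase ceruloplasmin, had the widest gap of these in WT, 1034 against 76.9 CPM, and 270.0 against 76.3 CPM in ND6. UMIs of *Sox9* (4) and *Cp* (5) were few in the WT poor barcodes.

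**Figure D3:**
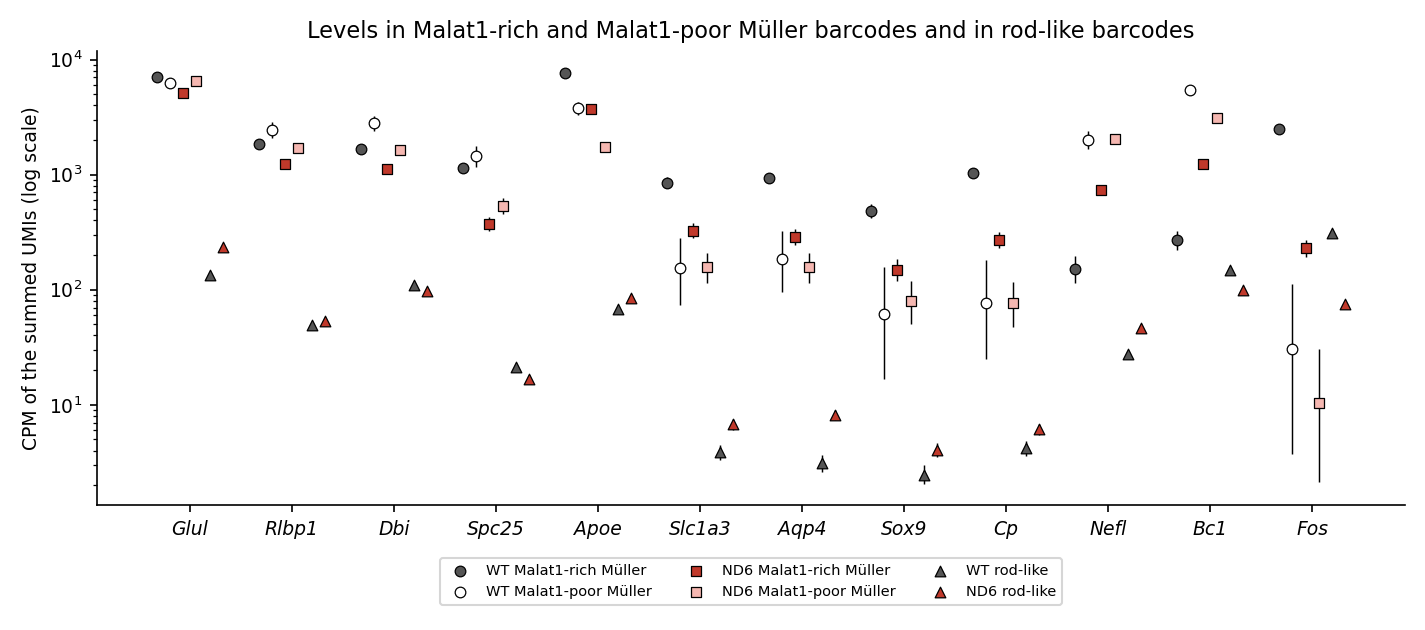
CPM of summed UMIs (y axis, log scale) with exact 95% counting intervals for 12 genes (x axis) in *Malat1*-rich and *Malat1*-poor Müller barcodes and in rod-like barcodes of WT and ND6. *Glul*, *Rlbp1*, *Dbi* and *Spc25* lie near each other in rich and poor barcodes of a library, *Slc1a3*, *Aqp4*, *Sox9*, *Cp* and *Fos* are lower in the poor ones, and *Nefl* and *Bc1* are higher there.

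Of the 17 markers outside the rule, 15 were higher in WT rich than in WT poor barcodes, 12 of them by 2-fold or more, with a median log2 ratio of 1.67 (0.5 UMIs added to each sum). Of all 4394 genes with at least 20 UMIs, 66.1% were higher, 37.8% by 2-fold or more, 9.85% were lower by 2-fold or more, and the median was 0.55. In ND6, 14 of 17 were higher, 4 by 2-fold or more, with a median of 0.83. Of all 6664 genes there, 67.6% were higher, 22.9% by 2-fold or more, 2.69% were lower by 2-fold or more, and the median was 0.37. By the main division, few WT rich barcodes had at most 2000 UMIs (5 of 37, all with 3 markers, 5517 UMIs). Members of at most 2000 UMIs were also divided again at their own pooled median *Malat1* share. The order of WT then turned, with a median of −2.25 over the 7 of the 17 markers with enough UMIs. With each barcode thinned to 400 UMIs it did not turn, with a median of 0.56 over 8 markers. The part of depth in the WT difference was not tested.

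*Nefl* was higher in *Malat1*-poor barcodes, while the bipolar and cone marker lists were higher in the rich. *Nefl* (chr14:68083863-68089095), the neurofilament light chain, was at 2014 CPM (1684 to 2390) in WT poor and 151 (115 to 196) in WT rich barcodes, and at 2037 (1875 to 2208) and 729.8 (662 to 803) in ND6. In rod-like barcodes it was at 27.8 and 46.9 CPM, and in free RNA at 92.9 and 265 CPM. *Nefl* was found in 91 of 150 ND6 poor barcodes (60.7%) and 15 of 41 WT poor barcodes (36.6%). After each barcode was thinned to 400 UMIs, the shares were 40.7% and 29.3%, against 2.54% and 1.64% of rod-like barcodes. *Nefm*, the medium neurofilament chain, had 3 and 13 UMIs in the poor barcodes, 46.1 and 45.1 CPM. The ganglion cell list as a whole took 0.229% of UMIs in WT poor and 0.225% in ND6 poor barcodes, with *Nefl* its most abundant gene and 6 of 7 genes detected in both. The part of ganglion cell RNA in these barcodes was not tested. Bipolar markers were higher in the rich barcodes for 7 of 7 genes in both libraries (medians 2.12 in WT and 1.67 in ND6) and cone markers for 6 of 6 (2.70 and 1.29), beside the 66.1% and 67.6% of all genes. At least 3 markers of a cone, bipolar, horizontal, amacrine or ganglion cell list were found in 11 of 37 rich and 2 of 41 poor barcodes in WT, and in 49 of 155 and 34 of 150 in ND6.

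*Bc1* (chr7:144914470-144914637), a short noncoding RNA carried into dendrites, was at 5459 CPM in WT poor and 269 in WT rich barcodes, 20.3-fold apart. In ND6 it was at 3133 and 1237 CPM, 2.53-fold apart. *Bc1* in rod-like barcodes was at 148 and 99.6 CPM. By the rule for named genes, the other genes most enriched in poor barcodes of both libraries were *Nefl*, *Rph3a*, *Nrsn1*, *Pfdn2*, *Ppp1r9b*, *Pcsk1n*, *Iqsec3*, *Rasl10b* and *Rps29*. *Rph3a*, a synaptic vesicle protein, was at 199.9 and 382 CPM in WT and ND6 poor barcodes and at 13.1 and 197 CPM in the rich ones. *Pcsk1n*, a neuroendocrine peptide precursor, was at 1553 and 1558 CPM in the poor barcodes and at 258 and 609.6 CPM in the rich. In the rich barcodes each of these genes was higher in ND6 than in WT, and in the poor barcodes the log2 ratios of ND6 over WT lay between −0.80 (*Bc1*) and 0.93 (*Rph3a*).

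The genes most enriched in *Malat1*-rich barcodes, beside *Malat1* itself, which set the division, were *Fosb*, *Fos*, *Ccn1*, *Junb*, *Jun*, *Btg2*, *Kcnq1ot1*, *Pnisr* and *Egr1*. *Fos* (chr12:85473890-85477273), an immediate early transcription factor, was at 2470 CPM (2315 to 2633) in WT rich and 30.8 (3.72 to 111) in WT poor barcodes, and at 229.9 (192 to 273) and 10.4 (2.15 to 30.4) in ND6. *Fosb* and *Ccn1* had 0 UMIs in the poor barcodes of both libraries, against 274 and 193 UMIs in the WT rich and 37 and 16 UMIs in the ND6 rich barcodes. *Kcnq1ot1*, a nuclear noncoding RNA, was at 329 CPM in WT rich barcodes with 0 UMIs in the poor, and at 371 and 38.2 CPM in ND6. *Pnisr*, a splicing-related gene, was at 449 CPM and 0 UMIs in WT and at 439 and 97.1 CPM in ND6. Between the rich barcodes of WT and ND6 the ratios of the nuclear noncoding RNAs ranged from −2.77 to 5.54, with a median of 0.62 over 8 genes, 3 of them higher in ND6 by 2-fold or more. Of all genes in that comparison, 47.7% were higher in ND6, 7.64% by 2-fold or more. *Malat1* itself had a median share of 6.77% in WT rich and 3.21% in ND6 rich barcodes.

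Of all genes, 66.1% in WT and 67.6% in ND6 were higher in *Malat1*-rich than in *Malat1*-poor barcodes, and the lists below stand beside these shares. Cytosolic ribosomal protein genes were lower in the rich barcodes, 80 of 82 in WT (median log2 ratio −1.70) and 81 of 82 in ND6 (−1.04). They took 5.12% of UMIs in WT rich, 17.9% in WT poor, 8.32% in ND6 rich and 17.7% in ND6 poor barcodes. The mtDNA-encoded genes were lower in the rich barcodes for 12 of 12 genes in WT (median −1.18) and 12 of 13 in ND6 (−0.30), with 5.86% and 13.4% of UMIs in WT rich and poor and 9.79% and 11.9% in ND6. Of the nuclear genes of complex I, 34 of 36 and 32 of 36 were lower (medians −1.02 and −0.52), and of complexes II to V 32 and 35 of 40 (−0.98 and −0.63). Rod genes were lower for 8 of 8 and 7 of 8 (−0.93 and −0.60), but without the members of 5% or more rod UMIs their medians turned to 0.25 and 0.12, and the ND6 median of the mtDNA-encoded genes was −0.035. Among WT members with 6 or more markers, divided again at the pooled median *Malat1* share of such members, the mtDNA median was 0.32.

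Lists of glial functions stood beside 66.1% (WT) and 67.6% (ND6) of all genes higher in rich barcodes, with medians of 0.55 and 0.37. Of the potassium, water and acid-base genes with enough UMIs, 8 of 8 were higher in the rich barcodes of both libraries, with medians of 1.26 and 0.77. Of the glutamate and ammonia genes, 6 of 7 and 7 of 7 were higher (1.65 and 0.54). The ND6 median was −0.40 among members with 6 or more markers, divided again at their own pooled median *Malat1* share. *Slc1a2*, the glutamate transporter GLT-1, was at 749 and 169 CPM in WT rich and poor barcodes and at 516 and 354 CPM in ND6. Rod-like barcodes held *Slc1a2* at 384 and 440 CPM. Lipid and cholesterol genes were higher for 10 of 11 in WT (1.31) and 8 of 13 in ND6 (0.06, below the median of all genes), led by *Acsl3*, an acyl-CoA synthetase, at 2084 and 384 CPM in WT and 569.6 and 264 CPM in ND6. Glycolysis, lactate and glycogen genes had medians of −0.15 and 0.09.

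**Figure D4:**
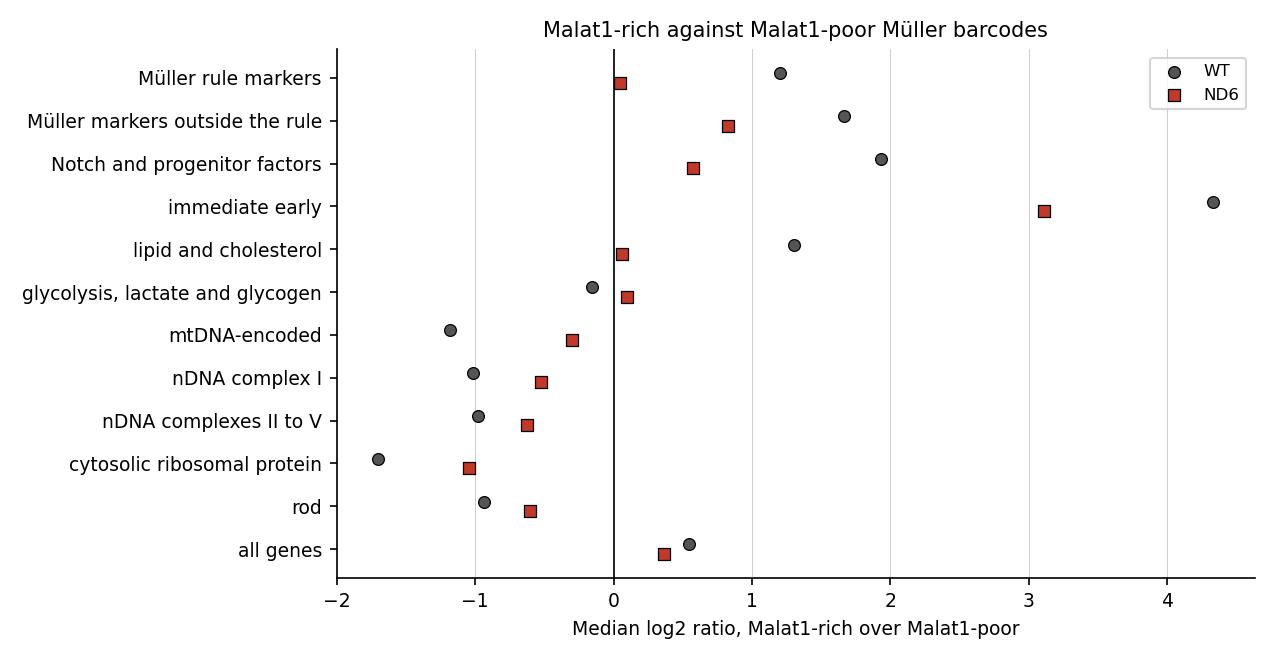
Median log2 ratio of *Malat1*-rich over *Malat1*-poor Müller barcodes (x axis) for gene lists and for all genes (y axis) in WT (circles) and ND6 (squares). Immediate early genes are highest (4.33 and 3.11), ribosomal and mitochondrial lists are below 0 in both libraries, and the WT value lies farther from 0 for every list shown.

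The comparison of ND6 with WT asks how the glial transcriptome of the mutant retina differs. Summed over all members, all 17 markers outside the rule were lower in ND6, 12 of them by 2-fold or more, with a median log2 ratio of −1.26. Of the 8381 genes with at least 20 UMIs, 43.7% were higher in ND6, 6.91% by 2-fold or more, and 8.84% were lower by 2-fold or more, with a median of −0.10. *Apoe* was 2.30-fold lower (log2 ratio −1.20, −1.28 to −1.13) and *Cp* 4.36-fold lower (−2.12, −2.39 to −1.87). *Car2*, a cytosolic carbonic anhydrase, was nearest to 0 (−0.16, −0.32 to −0.01), and rods held it too, at 445 and 488 CPM.

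The rule markers are given as a description, since they chose the members. *Glul* was at 6897 CPM (6656 to 7144) in WT and 5538 (5382 to 5698) in ND6 members. *Slc1a3* was at 748 CPM (670 to 832) and 269 (236 to 306), 2.78-fold lower in ND6. *Aqp4* was at 826 and 245 CPM, and *Kcnj10* at 141 and 92.8 CPM. All 8 were lower in ND6, with a median of −1.16, and *Glul* least.

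Within *Malat1*-rich barcodes, 17 of 17 markers outside the rule were lower in ND6 (median −1.11, 10 by 2-fold or more), where 47.7% of 7622 genes were higher, 7.64% by 2-fold or more, and 7.54% lower by 2-fold or more. In the *Malat1*-poor barcodes 11 of 15 were lower (median −0.22, 4 by 2-fold or more), where 52.5% of 2601 genes were higher, 11.3% by 2-fold or more, and 4.84% lower by 2-fold or more. *Apoe* was lower in ND6 in both, with log2 ratios of −1.02 (−1.11 to −0.94) and −1.13 (−1.35 to −0.90). *Spc25* and *Slc1a3* belong to the rule that chose the members, so their ratios are a description. That of *Spc25* was −1.61 in the rich and −1.44 in the poor barcodes. That of *Slc1a3* was −1.38 (−1.65 to −1.12) in the rich barcodes. In the poor barcodes it was 0.02 (−0.99 to 1.18), an interval too wide to tell.

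Among members with 6 or more markers (32 WT, 61 ND6, a choice made after the data were seen) the ratios of *Sox9* and *Apoe*, which the rule did not use, kept their direction and were nearer to 0. *Sox9* was at 493 and 187 CPM (log2 ratio −1.40, −1.81 to −1.002) and *Apoe* at 7773 and 4584 CPM (−0.76, −0.85 to −0.68). The rule markers chose these members, so their values are a description, *Slc1a3* at 870 and 431 CPM, *Glul* at 7109.8 and 5494 CPM and *Spc25* at 1165 and 409.9 CPM. The median of the 17 markers outside the rule was −0.92 there, and −0.50 when *Glul* was left out of the marker count and the sum. The number of markers detected, the depth and the neuronal transcripts of the members differed between the libraries as given above, and their part in these ratios was not tested.

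**Figure D5:**
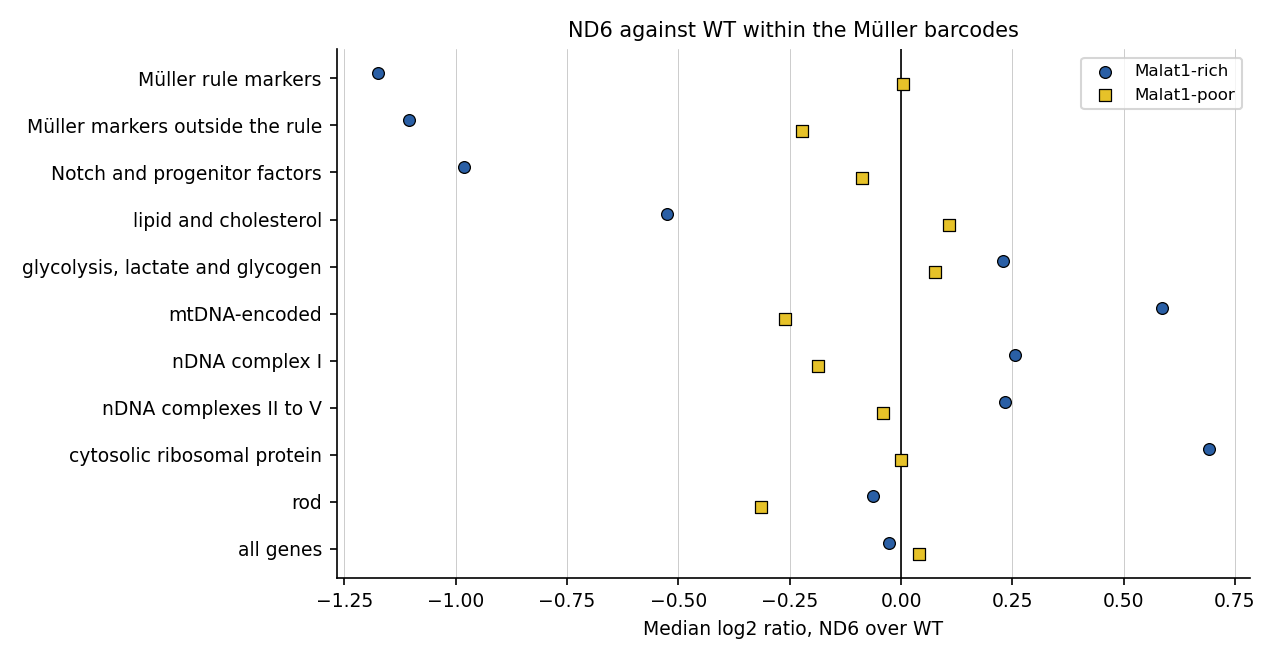
Median log2 ratio of ND6 over WT (x axis) for gene lists and for all genes (y axis) within *Malat1*-rich (circles) and *Malat1*-poor (squares) Müller barcodes. In rich barcodes the Müller markers are near −1.1 and the mtDNA-encoded and ribosomal lists are above 0.5, while in poor barcodes the lists drawn lie between −0.31 and 0.11 (lists not drawn, many with few genes tested, range from −1.17 to 2.13).

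Immediate early genes were far lower in ND6 members. All 15 were lower by 2-fold or more, beside 8.84% of all genes, with a median of −2.94. In poor barcodes only 1 of the 15 had enough UMIs, at −0.091. *Fos* was at 2116 CPM (1983 to 2255) in WT and 157 (131 to 185) in ND6, 13.5-fold lower. It was found in 26 of 37 WT rich barcodes (70.3%) and 26 of 155 ND6 rich barcodes (16.8%), and after thinning to 400 UMIs in 37.8% and 2.58%. *Ccn1*, *Dusp1*, *Fosb*, *Jun*, *Junb*, *Egr1* and *Ier2* were named by the rule for the lowest ratios, between −4.54 (*Ccn1*) and −2.95 (*Ier2*). *Fosb* and *Ccn1* had 0 UMIs in the poor barcodes, so their direction there rests on the added 0.5 UMIs alone. With 6 or more markers, *Fos* was at 2504 and 296 CPM and *Jun* at 1767 and 210 CPM.

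Early genes differed between the libraries outside the members as well. The 15 genes took 1.05% of WT and 0.118% of ND6 member UMIs. In rod-like barcodes they took 0.121% and 0.0587%, in microglia-like barcodes 3.74% and 2.43%, and in free RNA 0.160% and 0.0699%. Such genes can respond to tissue digestion, and the part of the dissociation in the difference was not tested.

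The Notch target *Hes1*, a repressor that helps keep glia and progenitors from neuronal fate, was at 1013 CPM (915 to 1119) in WT rich and 94.1 (70.7 to 123) in ND6 rich barcodes, and at 92.3 (33.9 to 200.8) and 52.0 (29.1 to 85.8) in the poor. *Hes5*, another target, was at 355 and 59.2 CPM in the rich barcodes, and *Id1*, an inhibitor of helix-loop-helix factors, at 347 and 27.9 CPM. *Notch1*, the receptor, was at 154 and 54.0 CPM. *Nfix*, a factor of late retinal differentiation, was at 347 and 400.6 CPM. Over the list, 14 of 16 genes were lower in ND6 members and 2 higher, with a median of −0.89, beside 43.7% of all genes higher. In poor barcodes 4 of 10 were higher, 3 of them by 2-fold or more, with a median of −0.087, beside 52.5% of all genes higher and 11.3% by 2-fold or more. *Olig1*, a factor of glial progenitors, had 0 UMIs in the members of both libraries, so it was not detectable at this depth (up to 6.70 CPM in WT and 3.48 CPM in ND6).

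Of the gliosis and retinal stress genes, 11 of 20 had enough UMIs and all 11 were lower in ND6, with a median of −0.69, 4 of them by 2-fold or more. Of all genes, 43.7% were higher in ND6 and 8.84% were lower by 2-fold or more. *Cebpd*, a transcription factor raised in stressed glia, was at 757 CPM in WT rich and 71.4 in ND6 rich barcodes. *Lcn2*, a secreted lipocalin, had 18 UMIs in WT and 2 in ND6 members. *Stat3*, a cytokine signal transducer, was at 62.5 and 39.4 CPM (−0.66, −1.43 to 0.11), and *Fgf2* at 40.2 and 33.6 CPM (−0.26, −1.15 to 0.68), differences within the counting error. *Vim*, the intermediate filament of Müller glia, was at 509 and 314 CPM. Heat shock genes were lower for 11 of 12 (−0.44).

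By the rule for named genes, the highest ratios were those of *Snhg11*, *Rph3a*, *Nrsn1*, *Cplx3*, *Meg3*, *Myo5a*, *Sv2a*, *Kif1a*, *Kif5c* and *Sncb*. *Snhg11*, a noncoding RNA of neurons, had 5 UMIs in WT members (11.2 CPM, 3.62 to 26.04) and 368 in ND6 members (427 CPM, 384 to 473). It was found in 62 of 305 ND6 members (20.3%), in 9.36% of ND6 rod-like barcodes and in 0.541% of WT rod-like barcodes. *Meg3*, an imprinted noncoding RNA abundant in neurons, was at 288 and 1009 CPM, and *Cplx3*, a complexin of retinal ribbon synapses and amacrine cells, at 172 and 724 CPM. In free RNA, *Snhg11* was at 17.7 and 398 CPM and *Meg3* at 39.8 and 1019.8 CPM. In rod-like barcodes, *Snhg11* was at 1.90 and 38.5 CPM and *Meg3* at 6.73 and 82.6 CPM. Both thus differed between the libraries in free RNA and in rods as well, and the part of free RNA in the members' values was not tested.

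*Kif1a* and *Kif5c*, kinesins of axonal transport, had log2 ratios of 1.63 (1.254 to 2.03) and 1.64 (1.11 to 2.21), *Sv2a*, a synaptic vesicle protein, 1.67, and *Sncb*, beta-synuclein, 1.58. *Nefl* was at 422 CPM (364 to 486) in WT and 1167 (1096 to 1241) in ND6 members. Its ratio was 2.27 (1.87 to 2.69) in rich barcodes and 0.02 (−0.26 to 0.30) in poor ones. With 6 or more markers *Nefl* was at 122 and 905 CPM.

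Marker lists of other retinal cells also differed between the summed members, in which 43.7% of all genes were higher in ND6. Amacrine markers were higher in ND6 for 4 of 5 genes (median 2.47) and took 0.0475% of WT and 0.0572% of ND6 member UMIs, led by *Pax6* in both. Ganglion cell markers were higher for 4 of 5 (1.46), with 0.0496% and 0.133%. Cone markers went the other way, lower for 5 of 6 (−0.71), with 0.122% and 0.0655%. Endothelial markers, led by the VEGF receptor *Flt1*, took 0.0949% and 0.0377%, and 0.109% in the WT rich barcodes. The part of these cells in the ratios was not tested.

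The share of mtDNA-encoded UMIs was capped at 20% by the choice of members, so the values of these genes are a description. Among the 13 mtDNA-encoded genes the ratio was above 0 for 10, beside 43.7% of all genes, and the median was 0.46. In rich barcodes the median was 0.59. In poor barcodes 12 of 12 were lower, with a median of −0.26, where 52.5% of all genes were higher. *mt-Nd1* had the largest value, 5039.9 and 8780.4 CPM (0.80, 0.73 to 0.87), followed by *mt-Co2* (0.74). *mt-Atp8* (−0.75), *mt-Nd4l* (−0.42) and *mt-Nd6* (−0.39) were lower in ND6. *mt-Nd6* itself, the gene that carries the change, had 19 and 28 UMIs, with an interval of −1.28 to 0.54. Rod-like barcodes held the list at 8.22% in WT and 7.00% in ND6, the other order, and free RNA at 18.0% and 8.72%.

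The nuclear genes of complex I were higher in ND6 for 30 of 36 (median 0.28), and those of complexes II to V for 36 of 40 (0.32), among them *Cox6c* (0.70) and *Cox4i1* (0.66), subunits of cytochrome oxidase. Of all genes, 43.7% were higher. In poor barcodes, where 52.5% of all genes were higher, 10 of 34 and 18 of 38 were higher (medians −0.19 and −0.04), the latter near that share. With each barcode given equal weight the medians were −0.13 for complex I, −0.035 for complexes II to V and −0.029 for the mtDNA-encoded genes, so the direction depends on how barcodes are weighted. Ribosomal protein genes were higher for 80 of 82 (0.69, and 0.11 with equal weights), and for 40 of 81 in poor barcodes, near the share of all genes there.

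The metabolic and transport lists stood beside 43.7% of all genes higher in ND6 and an all-gene median of −0.10. In poor barcodes 52.5% of all genes were higher, 11.3% by 2-fold or more, with a median of 0.04. Lipid and cholesterol genes were lower in ND6 for 11 of 13 (−0.37), led by *Acsl3* (−1.97, −2.15 to −1.80). In poor barcodes 4 of 7 of them were higher (0.11), near the share of all genes there. Potassium, water and acid-base genes were lower for 7 of 9 (−0.57), and glutamate and ammonia genes for 6 of 8 (−0.27). In poor barcodes 4 of 7 glutamate and ammonia genes were higher, also near that share, 3 of them by 2-fold or more (0.84). Retinoid genes were lower for 7 of 10 (−0.45), with *Rdh10*, a retinol dehydrogenase, at 164 and 47.0 CPM in rich barcodes and *Aldh1a1*, which makes retinoic acid, at 146 and 176 CPM. Glycolysis, lactate and glycogen genes were higher for 15 of 23 (0.23), with *Gapdh* at 0.23 and *Eno1* at −0.86. Antioxidant genes were split, 9 higher and 9 lower (−0.08), with *Gpx4*, which reduces lipid peroxides, at 1341 and 1346 CPM, and in poor barcodes 12 of 12 were lower (−0.47). Rod genes were split 4 and 4 (0.01).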

How the data were processed

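The authors made the files with Cell Ranger 3.0.2 on mm10 and deposited, per library, raw UMI counts for 32285 genes in every barcode. The annotation release is not given in the sources used here. The members and gene lists were chosen with earlier results of these data known. Barcodes were filtered as in the study (more than 400 UMIs and 200 genes, no more than 20% mtDNA-encoded UMIs). Member UMIs were summed per library, scaled to CPM and compared as log2 ratios, with Clopper-Pearson, Poisson and exact conditional 95% intervals. Lists used genes with at least 20 UMIs and 0.5 added UMIs. Genes named by rule had at least 200 UMIs in the members, the same direction in *Malat1*-rich and *Malat1*-poor barcodes (or in both libraries) and the 10 highest or lowest log2 ratios. A count of 0 was given a limit of 3 UMIs. Coordinates are from GENCODE M21, which held 32235 of the gene IDs. The calculations (Python 3.11.15, NumPy 2.4.6, SciPy 1.17.1) were tested on simulated data.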

Additional observations from a re-analysis of the deposited data

Results flagged for a closer look

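Barcodes above the mtDNA limit were not used in the comparisons and held many that met the marker rule. These were 200 of 10647 such barcodes in WT (1.88%, 1.63 to 2.15) and 685 of 3861 in ND6 (17.7%, 16.5 to 19.0). They held *Glul* at 4622 and 6038 CPM and *Nefl* at 849 and 2087 CPM, with medians of 39.9% and 34.5% mtDNA-encoded UMIs.

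Between *Malat1*-rich and *Malat1*-poor barcodes, the ratio of ND6 over WT had opposite signs for the mtDNA-encoded genes (medians 0.59 and −0.26), *Bc1* (2.20 and −0.80) and *Rps29*, a ribosomal protein gene (0.67 and −0.25). The ratio of rich over poor had opposite signs in WT and ND6 for *Glul* (0.16 and −0.34). These differences between ratios were not tested.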

How the results depend on the processing

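Each group is 1 library, so genotype and library cannot be told apart, leaving out a library in turn leaves no comparison, and the WT sums rest on few deep barcodes. No paired analysis was possible because each group has 1 library. Of 107 values of the main comparisons under other settings, 68 moved by less than the counting error, 36 moved by more and 3 changed sign. For a list median, the counting error used here was that of the middle gene or genes of the list, not that of the median itself. A change of sign was counted where the interval of the value as reported left out 0. The cause of these changes was not tested. Over the single genes and other lists, 1509 of 1911 moved by less than the counting error and 38 changed sign. Values whose interval held 0 also crossed it and are not among the 38, such as complex I for ND6 over WT (0.28), at −0.13 with barcodes weighted equally.

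The log2 ratio of the shares (1.41) was 0.81 with markers at 1% of UMIs or more and 0.15 without *Glul* in the marker count and the sum. It was 1.89 with no mtDNA limit, 0.38 with 6 markers or more and 0.73 with each barcode thinned to 400 UMIs. For ND6 over WT, the median of the markers outside the rule (−1.26) was −0.50 without *Glul*, −0.92 with 6 markers, −0.98 with barcodes weighted equally and −1.62 without the 5% of members with most UMIs. The mtDNA-encoded median (0.46) was 0.55 with 4 markers, 0.23 with markers at 1%, 0.31 without *Glul*, 0.63 with 6 markers, 0.56 with median-of-ratios scaling, 0.33 without the deepest 5%, and −0.029 with barcodes weighted equally, which also turned complexes II to V to −0.035 and *Bc1* to −0.22.

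For rich over poor, the median of the markers outside the rule was −2.25 in WT members of up to 2000 UMIs (main 1.67), and in ND6 (0.83) it was 1.43 with markers at 1% and 1.51 with 6 markers. The mtDNA-encoded median in WT (−1.18) was −0.50 with 4 markers, −1.31 without *Glul*, −1.75 with no mtDNA limit, 0.32 with 6 markers, −0.88 with equal weights, −1.73 with median-of-ratios scaling, −1.32 without members of 5% or more rod UMIs, −0.13 at up to 2000 UMIs and −0.98 thinned. In ND6 (−0.30) it was −0.063 with 4 markers, −0.74 with markers at 1%, −0.95 without *Glul*, −0.89 with no mtDNA limit, −0.053 with at least 1000 UMIs, −0.65 with 6 markers, −0.45 with equal weights, −0.67 with median-of-ratios scaling, −0.22 without the deepest 5%, −0.035 without rod-rich members and −0.079 between the outer tertiles of *Malat1*.

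Other signs changed for rich over poor in WT with 4 markers for *Rlbp1* (0.48), *Spc25* (0.33) and *Dbi* (0.26), with 6 markers for *Rlbp1* (0.87), *Spc25* (0.93), *Dbi* (0.66), *Nefl* (0.069) and *Meg3* (−1.15), with at least 1000 UMIs for *Spc25* (0.026), and without the deepest 5% for *Rlbp1* (0.062) and *Spc25* (0.12). *Glul* in WT was −0.39 with median-of-ratios scaling, −0.49 at up to 2000 UMIs and −0.020 thinned, where the rule markers were −0.59 and −0.022. At up to 2000 UMIs *Dkk3* was −3.37, *Apoe* −2.25 and *Clu* −4.44. Without rod-rich members the rod median was 0.25 in WT and 0.12 in ND6. In ND6, 6 markers turned *Glul* (0.028), *Rlbp1* (0.18), *Spc25* (0.15), *Snhg11* (−0.89), the glutamate and ammonia list (−0.40) and the rod list (0.0078), and markers at 1% turned *Spc25* (0.016) and the rod list (0.10). No mtDNA limit turned complex I (0.029) and the rod list (0.30) in ND6, up to 2000 UMIs *Spc25* (0.016), median-of-ratios scaling *Dkk3* (−0.012), and *Cebpd* was −0.19 with 4 markers, −0.41 with at least 1000 UMIs and −0.33 without rod-rich members. Median-of-ratios scaling sets the median of all genes, otherwise 0.55 in WT and 0.37 in ND6 for rich over poor, to 0. The setting with 6 markers was chosen after seeing the data, and each setting that changed the members also moved the dividing value of *Malat1*.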
